A study of Mus musculus with 12 samples.

Results

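The epithelial-mesenchymal identity genes were 10 genes chosen by name: Cdh1, Epcam, Cldn6 and Krt8, which mark epithelial cells, and Cdh2, Vim, Zeb1, Zeb2, Snai1 and Snai2, which mark mesenchymal cells or drive cells toward that state. All 10 were found among the 51467 mouse genes of the count table. Mouse embryonic stem cells (ESCs) of 2 genotypes, wild-type and Dgcr8 KO, were sequenced in 12 libraries, with 3 replicates in each of 4 groups. DGCR8 is the RNA-binding partner of the DROSHA nuclease, and cells without it cannot cut most primary microRNA transcripts into hairpins. All cells were kept undifferentiated in serum with LIF and 2i (the inhibitors PD0325901 and CHIR99021), and all, wild-type included, received 500 uM of the nucleoside 4-thiouridine (4sU) for 30 minutes. The RNA of a sample was then divided: the 4sU-labeled part, pulled down through biotin, gave a nascent RNA library, and the rRNA-depleted total RNA gave a steady-state library. According to the study's methods, the wild-type cells were the V6.5 line and the Dgcr8 KO cells an earlier knockout line, so genotype and cell line cannot be told apart, and where the labels do not say that replicates were separate cultures, p-values measure only the spread between these libraries. Total libraries held 6873708 to 9295245 gene counts in wild-type and 7184551 to 9215024 in Dgcr8 KO, and 4sU libraries held 4593914 to 6005526 and 4775267 to 4998675.

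Epithelial cells are bound to each other by adherens junctions built on E-cadherin (Cdh1) and by tight junctions built on claudins, and their cytoskeleton holds keratins such as keratin 8. Mesenchymal cells have N-cadherin (Cdh2) and vimentin (Vim) instead. The zinc finger repressors of the SNAIL family (Snai1, Snai2) and the ZEB family (Zeb1, Zeb2) bind E-box sequences, CACCTG or its reverse complement CAGGTG, near epithelial genes such as Cdh1 and switch them off, and microRNAs of the miR-200 family bind the 3′ UTRs of Zeb1 and Zeb2. ESCs are an epithelial-like cell type with abundant E-cadherin, although vimentin mRNA is often found in cultured ESCs.

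The microRNAs known for binding these transcripts are shown first, since the Dgcr8 KO removes the enzyme complex that makes them. The mature microRNAs come from RefSeq (GRCm38.p6), with the seed, bases 2 to 8, in capitals. The first 3 share one seed, the next 2 share another, mmu-miR-294-3p stands for the ESC-enriched cell cycle (ESCC) family of the miR-290 and miR-302 clusters, and mmu-miR-34a-5p is a known regulator of Snai1.
mmu-miR-200b-3p: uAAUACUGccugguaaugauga
mmu-miR-200c-3p: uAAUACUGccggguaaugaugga
mmu-miR-429-3p: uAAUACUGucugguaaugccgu
mmu-miR-200a-3p: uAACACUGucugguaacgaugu
mmu-miR-141-3p: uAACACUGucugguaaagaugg
mmu-miR-294-3p: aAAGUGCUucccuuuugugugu
mmu-miR-34a-5p: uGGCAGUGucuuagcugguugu

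Matches to these seeds were counted on the transcript strand of the longest annotated 3′ UTR of each gene. CAGTATT, the match to miR-200b, miR-200c and miR-429, stood in 15.6% of 11814 tested genes with a 3′ UTR, CAGTGTT (miR-200a and miR-141) in 21.2%, AGCACTT or GCACTTA (ESCC) in 21.3% and CACTGCC (miR-34) in 17.6%. GCACTTA leaves out the base that pairs with seed base 8 and adds an A at its end. ESCC matches were thus counted by a wider rule than those of the other families. Zeb1 and Zeb2 each held 5 CAGTATT and 4 CAGTGTT matches, in 3′ UTRs of 2401 and 4941 bases, and Zeb1 held 1 ESCC match as well. Snai1 held 1 CAGTATT and 1 CACTGCC, Snai2 held 1 CAGTATT and 1 CAGTGTT, Cldn6 held 1 CAGTGTT and Vim held 1 AGCACTT. Cdh1, Epcam, Krt8 and Cdh2 held none of these letters. A match describes the sequence and is not a measured binding site. Those of the genes named in the results are shown in 25-base windows of mm10, with the match in capitals and its position in the genome before it; for Zeb2, 2 of 9 are given, and those of Zeb1 are not printed here.
Zeb2, chr2:44988174-44988180, minus strand: accatacatCAGTATTttattatta
Zeb2, chr2:44988358-44988364, minus strand: aattttgtaCAGTGTTaaggcctaa
Snai1, chr2:167542279-167542285, plus strand: cctacccctCAGTATTcatgaggtg
Snai1, chr2:167542137-167542143, plus strand: cctcctcctCACTGCCaggactcct
Snai2, chr16:14708723-14708729, plus strand: ccaaaggaaCAGTATTtcttcttaa
Snai2, chr16:14708307-14708313, plus strand: tggcgcaacCAGTGTTtactcaaac
Cldn6, chr17:23682113-23682119, plus strand: tcttctgtgCAGTGTTctaaggctg
Vim, chr2:13582651-13582657, plus strand: aagaagctcAGCACTTaacaactga

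E-boxes were sought in RefSeq promoters of 300 bases (GRCm38.p6), where 18.4% of 12520 promoters of tested genes held CACCTG or CAGGTG. The table had promoters for 6 of the 10 genes. Epcam and Cldn6 held 2 E-boxes each and Krt8 and Snai1 held 1 each, while no match stood in the promoter of Vim or in the 4 promoters of Zeb2. They are shown with the E-box in capitals, on the strand of the gene, and are not measured binding sites. The Cldn6 E-box at chr17:23679405-23679410 stood 40 bases past the start site, and the others stood before it.
Epcam, chr17:87635792-87635797, plus strand: agtagggccCACCTGctggaggac
Epcam, chr17:87635960-87635965, plus strand: cataaaaccCAGGTGtggaggaga
Cldn6, chr17:23679272-23679277, plus strand: aaacgcacgCAGGTGgctatcgcc
Cldn6, chr17:23679405-23679410, plus strand: tctcttttgCAGGTGagcc
Krt8, chr15:102004448-102004453, minus strand: tgctgccctCACCTGagtcccgtc
Snai1, chr2:167538069-167538074, plus strand: gcccaggcgCACCTGctccggtct

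Dgcr8 itself served as a check of the labels. Its total RNA was at 92.5 to 111 CPM (read counts brought to a common library size by TMM scaling) in the wild-type libraries and at 32.0 to 34.1 CPM in the Dgcr8 KO libraries, and its nascent RNA at 107 to 118 CPM and 71.2 to 86.8 CPM. The groups did not overlap in either kind of RNA. Counts per gene do not separate the deleted part of Dgcr8 from the rest.

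In total RNA of both genotypes, Cdh1 was the most abundant of the 10 genes and Vim the next. Levels between genes are compared here as CPM per kilobase of exon. In wild-type total RNA, Cdh1 stood highest at 177.0 ± 9.15 (SD, n = 3 for all levels here), above 97.4% of the 14033 genes tested. Vim followed at 50.3 ± 4.31, Epcam at 35.3 ± 1.65 and Zeb1 at 10.5 ± 0.402. Cldn6 at 5.20 ± 0.892 and Krt8 at 5.16 ± 0.802 overlapped. Cdh2 was at 1.04 ± 0.240 CPM per kilobase, and Snai2, Snai1 and Zeb2 closed the order at 0.377 ± 0.0912, 0.260 ± 0.0588 and 0.0622 ± 0.0185. In Dgcr8 KO total RNA the order of level changed in the middle. Cdh1 was at 231.9 ± 2.52 CPM per kilobase and Vim came close below it at 220.9 ± 6.02, with no overlap between their libraries. Krt8 rose in the order to 29.2 ± 1.34 and overlapped Epcam at 31.2 ± 2.91. Snai1 at 1.81 ± 0.166 stood above Cldn6 at 1.11 ± 0.199, the reverse of wild-type.

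Of these genes, 9 reached 3 CPM in at least 3 libraries and entered the fit, a limma model of all 12 libraries with voom weights. That left out Zeb2, which had 2 to 7 counts in every library. Libraries at or under 3 counts numbered 4 for Zeb2, 2 for Snai2, and 1 each for Cldn6 and Snai1, and there were none for the other genes. A change passes at an adjusted p under 0.05 over all 14033 genes and is called when its log2 change also exceeds 1 in size.

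In total RNA, 6 of the 9 genes were higher in Dgcr8 KO (27.2% of all genes tested passed as higher) and 3 were lower (36.7% of all genes tested passed as lower). 6 of the 9 were called, against 17.2% of all genes tested: Krt8, Cdh2, Vim and Snai1 higher, Cldn6 and Snai2 lower. Epithelial and mesenchymal genes thus each had called members in both directions, but Snai2 was the only mesenchymal one called lower. Its total libraries held 4 to 8 counts in wild-type and 0 to 4 in Dgcr8 KO, and it was not called in 6 of 14 alternatives. In nascent RNA, 5 of the 9 passed as higher (28.3% of all genes tested) and 2 as lower (28.0%), and the called genes were again Krt8, Cdh2, Vim and Snai1 higher and Cldn6 and Snai2 lower, 6 of 9 against 14.8%. The size threshold was not met by Cdh2 under every alternative: with the adjusted p still under 0.05, its log2 change was 0.864 to 0.996 in 3 of 15 alternatives in total RNA and 0.931 to 0.988 in 6 of 15 in nascent RNA.

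**Figure D1:**
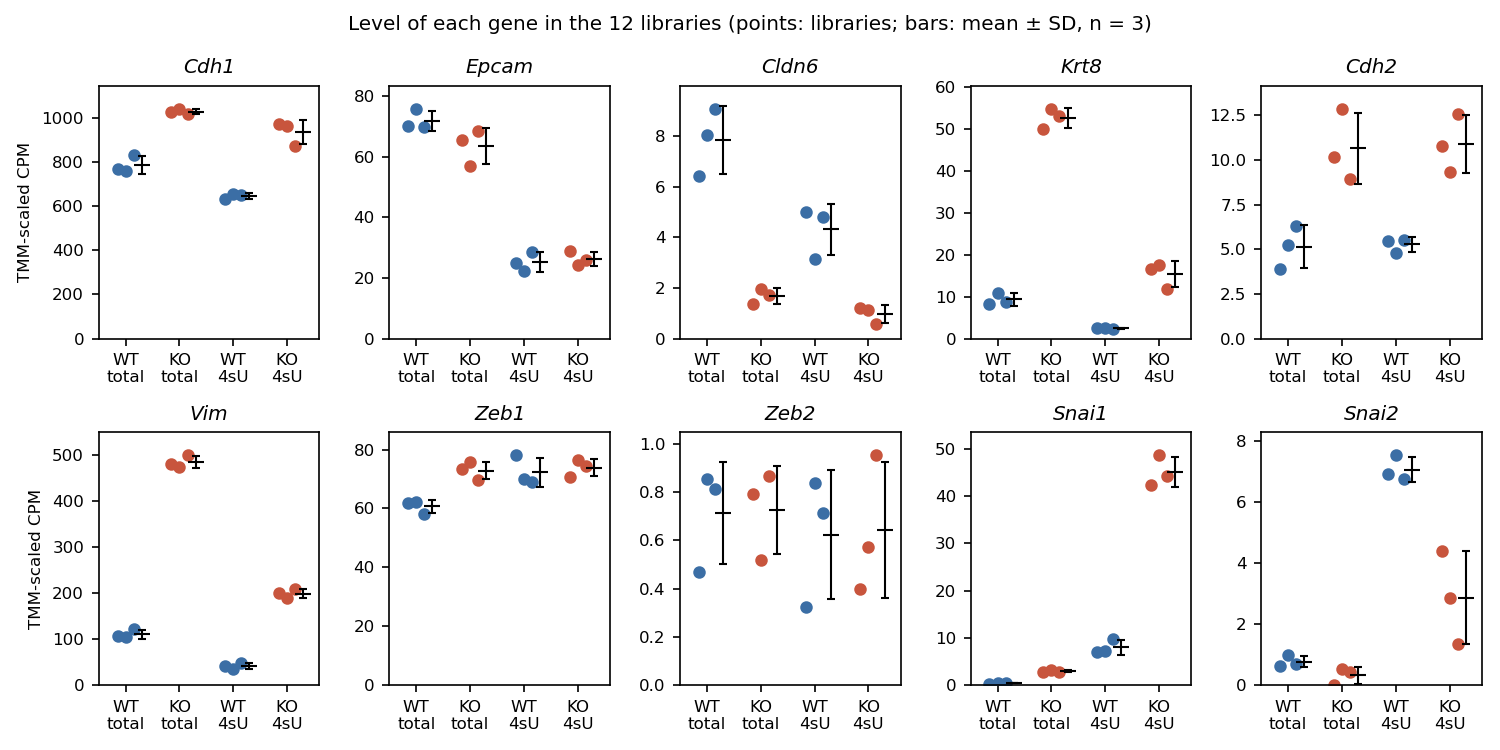
Level of each of the 10 genes in TMM-scaled CPM (y axis, from 0, a scale of its own for each gene) in the wild-type (WT, blue) and Dgcr8 KO (KO, red) libraries of total and 4sU RNA; points are libraries and the bars beside them mean ± SD (n = 3). Dgcr8 KO libraries lie above all wild-type libraries of the same RNA for Krt8, Vim, Cdh2, Cdh1 and Snai1 and below them for Cldn6 and Snai2, while Zeb2 overlaps in both. The share of all genes tested whose groups lie apart is not given here. Of all genes tested, 63.9% passed in total RNA and 56.3% in nascent RNA.

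Among the epithelial genes, Cdh1 encodes E-cadherin, the main adhesion molecule of ESCs. In total RNA it was at 766, 756 and 831 CPM in wild-type and at 1026, 1039 and 1017 CPM in Dgcr8 KO. In nascent RNA it was at 631, 654 and 650 CPM in wild-type and at 971, 961 and 871 CPM in Dgcr8 KO. All Dgcr8 KO libraries lay above all wild-type libraries in both. The log2 change was 0.39 ± 0.0437 (SE) in total RNA (limma adjusted p = 2.94e-09) and 0.53 ± 0.0478 in nascent RNA (limma adjusted p = 4.58e-11), a rise of 1.31-fold and 1.45-fold.

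Epcam encodes an epithelial cell adhesion molecule of the cell surface. Its total RNA was at 70.1, 75.8 and 69.9 CPM in wild-type and at 65.5, 57.1 and 68.6 CPM in Dgcr8 KO, which did not overlap but nearly touched. Its nascent RNA, at 24.9, 22.2 and 28.6 CPM in wild-type and 28.8, 24.2 and 26.1 CPM in Dgcr8 KO, did overlap. The log2 change in total RNA was -0.18 ± 0.0750 (limma adjusted p = 0.0352). It no longer passed in 9 of 15 alternative settings, with adjusted p between 0.0227 and 0.286 over the 15, among them DESeq2 (log2 change -0.15, adjusted p = 0.194), the fit without wild-type replicate 2 (-0.15, adjusted p = 0.11) and the fit without Dgcr8 KO replicate 2 (-0.10, adjusted p = 0.286). In nascent RNA the log2 change was 0.06, with a 95% interval of -0.20 to 0.31 (limma adjusted p = 0.711).

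Cldn6 encodes claudin 6, a tight junction claudin of embryonic epithelia. Its total RNA was at 6.40, 8.05 and 9.06 CPM in wild-type and at 1.35, 1.95 and 1.73 CPM in Dgcr8 KO. The nascent RNA showed the same separation, at 4.99, 3.14 and 4.80 CPM in wild-type and 1.20, 1.15 and 0.571 CPM in Dgcr8 KO. It fell by 2.22 ± 0.282 on the log2 scale in total RNA (limma adjusted p = 3.43e-08) and by 2.11 ± 0.421 in nascent RNA (limma adjusted p = 8.09e-05), 4.67-fold and 4.31-fold lower. These values rest on few reads, 12 to 15 counts in each Dgcr8 KO total library and 3 to 6 in each nascent one. Cldn6 reached 3 CPM only in wild-type libraries, so it entered the fit through the group where it was high.

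Krt8 encodes keratin 8, an intermediate filament protein of simple epithelia. In total RNA it stood at 8.27, 10.97 and 8.71 CPM in wild-type and at 50.0, 54.8 and 53.1 CPM in Dgcr8 KO. In nascent RNA it stood at 2.41, 2.51 and 2.31 CPM in wild-type and at 16.6, 17.6 and 11.8 CPM in Dgcr8 KO. The lowest Dgcr8 KO library was thus several times above the highest wild-type library. The rise of 5.60-fold in total RNA (log2 change 2.49 ± 0.129, limma adjusted p = 3.94e-17) and 6.08-fold in nascent RNA (2.60 ± 0.283, limma adjusted p = 2.79e-09) was the steepest of the epithelial genes.

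Among the mesenchymal structural genes, Vim encodes vimentin, the intermediate filament protein typical of mesenchymal cells. Its total RNA was at 106, 104 and 121 CPM in wild-type and at 480, 474 and 499 CPM in Dgcr8 KO. Its nascent RNA was at 42.3, 35.1 and 48.6 CPM and at 199, 190 and 208 CPM. The groups lay far apart in both kinds of RNA. The log2 change was 2.13 ± 0.0621 in total RNA (limma adjusted p = 1.5e-23) and 2.24 ± 0.0892 in nascent RNA (limma adjusted p = 1.22e-19). Within a library, where scaling between libraries plays no part, the ratio of Krt8 to Vim per kilobase was 0.0874 to 0.129 in wild-type and 0.127 to 0.140 in Dgcr8 KO total RNA, so the ratios of the genotypes overlapped at their edges although Krt8 rose 5.60-fold and Vim 4.39-fold.

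Cdh2 encodes N-cadherin, the cadherin of neural and mesenchymal cells. Its total RNA was at 3.90, 5.24 and 6.27 CPM in wild-type and at 10.2, 12.9 and 8.95 CPM in Dgcr8 KO. Its nascent RNA was at 5.47, 4.81 and 5.52 CPM in wild-type and at 10.8, 9.35 and 12.6 CPM in Dgcr8 KO. The groups did not overlap, and the log2 change, close to the threshold of 1, was 1.02 in both, with SE 0.191 in total RNA (limma adjusted p = 2.22e-05) and 0.224 in nascent RNA (limma adjusted p = 0.000249). It lay under 1 without wild-type replicate 1 (0.864) or Dgcr8 KO replicate 2 (0.888) in total RNA, and without wild-type replicate 2 (0.965) or Dgcr8 KO replicate 3 (0.931), with RLE scaling (0.966), with upper-quartile scaling (0.973) and in DESeq2 (0.988) in nascent RNA. Cdh1 nevertheless stayed far more abundant: per kilobase, the ratio of Cdh1 to Cdh2 within a total library was 148 to 219 in wild-type and 90.5 to 127 in Dgcr8 KO, and within a 4sU library 129 to 152 and 77.5 to 115.

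**Figure D2:**
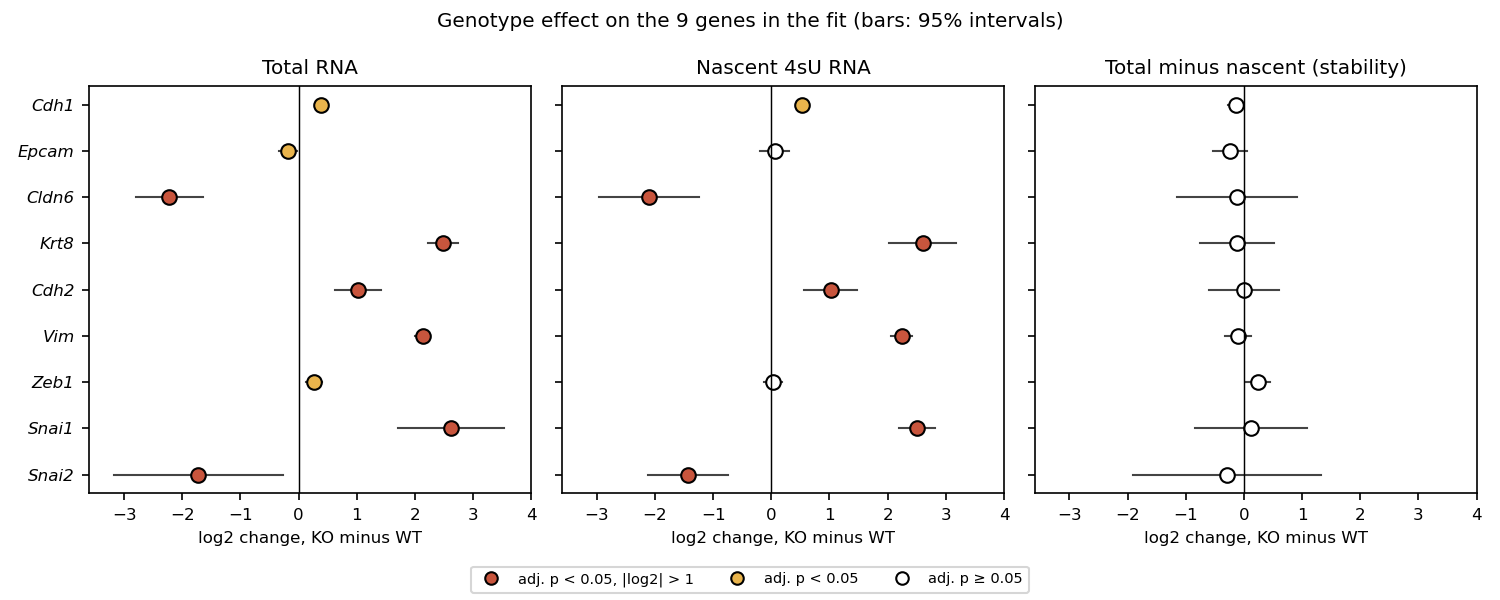
Log2 change from wild-type (WT) to Dgcr8 KO (x axis) of the 9 genes in the fit, in total RNA (left), nascent 4sU RNA (middle) and their difference (right); points are estimates coloured by whether they passed and bars are 95% intervals. The estimates of total and nascent RNA lie near each other for Krt8, Vim, Snai1, Cdh2 and Cldn6, and no point of the right panel passed at an adjusted p under 0.05.

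Of the 4 transcription factors, Snai1 rose most. Snai1 encodes SNAIL, a zinc finger repressor of Cdh1. Its nascent RNA was at 7.08, 7.11 and 9.78 CPM in wild-type and at 42.4, 48.6 and 44.4 CPM in Dgcr8 KO. In total RNA it was scarce, at 0.312, 0.488 and 0.465 CPM in wild-type (2 to 4 counts) and at 2.82, 3.24 and 2.74 CPM in Dgcr8 KO (19 to 25 counts). The groups lay apart in both. The log2 change was 2.498 ± 0.151 in nascent RNA (limma adjusted p = 4.51e-15), or 5.65-fold, and 2.62 ± 0.449 in total RNA (limma adjusted p = 6.42e-06). Cdh1, its best known target, was higher in the same libraries.

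Snai2 encodes SLUG, the relative of SNAIL, and went the other way. Its nascent RNA was at 6.92, 7.53 and 6.76 CPM in wild-type and at 4.40, 2.86 and 1.33 CPM in Dgcr8 KO, with no overlap. It fell by 1.43 ± 0.339 on the log2 scale (limma adjusted p = 0.000626), and by 0.955 without Dgcr8 KO replicate 3 (adjusted p between 0.000142 and 0.0191 over 14 alternatives). The total libraries held only 4 to 8 counts in wild-type and 0 to 4 in Dgcr8 KO; the 0 in replicate 1 allows up to 0.339 CPM by counting error alone. The change in total RNA, -1.72 ± 0.714 (limma adjusted p = 0.0356), rested on that library, since without Dgcr8 KO replicate 1 it was -0.60 (adjusted p = 0.395). It also missed the threshold without wild-type replicate 2 (-1.53, adjusted p = 0.101), in edgeR (-1.32, adjusted p = 0.0833) and in DESeq2 (-1.33, adjusted p = 0.0926), with adjusted p from 0.00837 to 0.395 over 14 alternatives. Within 4sU libraries the ratio of Snai1 to Snai2 per kilobase was 1.18 to 1.81 in wild-type and 12.1 to 41.7 in Dgcr8 KO.

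Zeb1, whose 3′ UTR held the most microRNA matches of the genes in the fit, changed little. Its product is a zinc finger and homeodomain repressor of epithelial genes. In total RNA it was at 62.0, 62.1 and 58.0 CPM in wild-type and at 73.3, 75.7 and 69.7 CPM in Dgcr8 KO, which did not overlap. In nascent RNA it was at 78.0, 69.9 and 68.8 CPM and at 70.8, 76.5 and 74.4 CPM, which did. The log2 change was 0.27 ± 0.0688 in total RNA (limma adjusted p = 0.00107), 1.20-fold, and 0.03 in nascent RNA, with a 95% interval of -0.12 to 0.18 (limma adjusted p = 0.743). The change in total RNA passed in each of the 15 alternatives, between 0.225 and 0.32.

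Zeb2, the other ZEB factor, was close to the detection limit. It had 3 to 7 counts per library in wild-type and 4 to 7 in Dgcr8 KO total RNA, or 0.712 ± 0.212 and 0.725 ± 0.182 CPM (SD, n = 3), with an exact two-sided permutation p = 0.9. In 4sU RNA it was at 0.623 ± 0.269 and 0.641 ± 0.282 CPM (exact two-sided permutation p = 1.0). With 3 libraries against 3 this test cannot go below 0.1, and a change in Zeb2 was not detectable at this depth. Within a library, the ratio of Zeb1 to Zeb2 per kilobase was 140.5 to 260.9 in wild-type and 158.7 to 287.3 in Dgcr8 KO total RNA.

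The microRNA hairpin genes themselves gave almost no reads in these long-RNA libraries. Of 6 hairpin genes known to target Zeb1 and Zeb2, Mir429 and Mir205 had 0 counts in all 12 libraries, Mir200b had at most 1, Mir200c and Mir141 at most 3, and Mir200a at most 7. Mature microRNAs are too short for these libraries and were not measured.

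The third comparison asked whether the ratio of total to nascent RNA, a measure of mRNA stability, differed between the genotypes. It was tested as the difference between the change in total and the change in nascent RNA. None of the 9 genes passed in limma (0 of 9, against 16.1% of all genes tested), while 2, Cdh1 and Zeb1, had an unadjusted p under 0.05. In edgeR 0 of the 9 passed, and in DESeq2 1 (Zeb1) of the 7 to which it gave an adjusted p, which left out Cldn6 and Snai2. The shares of all genes under the unadjusted, edgeR and DESeq2 rules are not given here, so these counts have no background beside them. With TMM scaling 31.1% of the genes that passed were higher; with DESeq2's size factors (RLE) 14.3% of all genes passed and 52.2% of these were higher, so directions of small stability changes depend on the scaling. Of the 9 genes, Zeb1 alone crossed the threshold for stability with another scaling. Its log2 change in stability was 0.24 ± 0.102 (limma adjusted p = 0.117) in the main fit, 0.33 with RLE scaling (limma adjusted p = 0.027), 0.30 with upper-quartile scaling (limma adjusted p = 0.0391) and 0.33 in DESeq2 (adjusted p = 0.0459), with adjusted p from 0.027 to 0.329 over 16 alternatives. Its sign was positive in each of them.

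For Cdh1 the stability change was -0.14 ± 0.0648 (limma adjusted p = 0.137), and it passed only without Dgcr8 KO replicate 3 (-0.19, adjusted p = 0.048, within a range of 0.048 to 0.718 over 16 alternatives). Vim, with its ESCC match, had a stability change of -0.11 with a 95% interval of -0.33 to 0.11 (limma adjusted p = 0.562); its estimate was -0.02 with RLE scaling and ran from -0.145 to -0.0139 over 16 alternatives. The interval for Epcam ran from -0.53 to 0.06. For the less abundant genes the intervals were wide, from -0.75 to 0.52 for Krt8, -0.60 to 0.60 for Cdh2, -1.15 to 0.92 for Cldn6, -0.85 to 1.08 for Snai1 and -1.91 to 1.32 for Snai2, so changes of about that size were not detectable.

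The ratio of total to nascent RNA differed far more between the genes than between the genotypes. In wild-type, the log2 ratio of Snai1 was -4.20, -3.72 and -4.24 in the 3 pairs of same-numbered libraries, 17.6-fold below the median of all genes tested and lower than all but 0.762% of them. Snai2 followed at -3.32, -2.88 and -3.18, 9.27-fold below the median (percentile 4.84). At the other end, Krt8 had log2 ratios of 1.74, 2.08 and 1.87, 3.51-fold above the median (percentile 96.5). Epcam stood at percentile 90.8, Vim at 88.7 and Cldn6 at 74.2. Cdh1, Zeb2, Cdh2 and Zeb1 lay near the middle, at percentiles 55.6, 52.5, 45.7 and 40.6. The wild-type ratios of Snai1 and Snai2 rest on 2 to 4 and 4 to 8 counts per total library. That of Zeb2, which failed the filter of the fit, rests on 3 to 7 counts per total library and 2 to 4 per 4sU library. In Dgcr8 KO Snai1 and Snai2 again stood lowest and Krt8 highest, at percentiles 1.41, 3.58 and 96.0, while Vim at 87.8 stood just above Epcam at 87.4. The Dgcr8 KO mean for Snai2 rests on the pair with 0 counts in total RNA (log2 ratios of -6.32, -2.34 and -1.50).

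**Figure D3:**
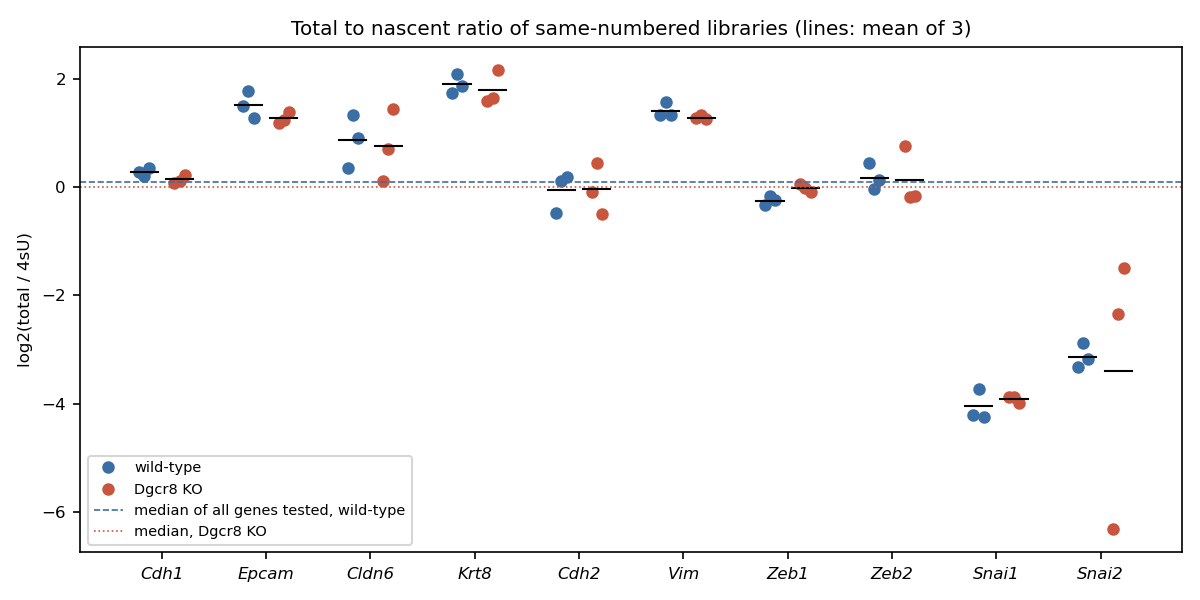
Log2 ratio of total to 4sU RNA (y axis) of each of the 10 genes in wild-type (blue) and Dgcr8 KO (red); points are same-numbered pairs of libraries, black lines their mean (n = 3) and the dashed and dotted lines the median of all genes tested in each genotype. Snai1 and Snai2 lie far below both medians and Krt8, Epcam and Vim above them; the low Snai2 point of Dgcr8 KO comes from the library with 0 counts.

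Genes that work beside these 10 were then counted from lists of known members. Of 29 epithelial junction and polarity genes, 27 were tested. In total RNA 6 were higher, 13 lower and 8 did not pass, with a median log2 change of -0.17 against -0.09 for all genes tested. Of all genes tested, 27.2% passed as higher and 36.7% as lower in total RNA, and each list's counts stand against these shares. The steepest falls that kept the libraries of the 2 genotypes apart were in Pkp2, a desmosomal plakophilin (-1.94 ± 0.167, limma adjusted p = 1e-11), Ctnna1, the alpha-catenin that ties E-cadherin to actin (-0.85 ± 0.0467, limma adjusted p = 1.78e-16), and Pard6b, a polarity protein (-0.72 ± 0.110, limma adjusted p = 8.32e-07). Perp, a desmosomal membrane protein, rose by 2.08 ± 0.117 (limma adjusted p = 3.33e-16), Patj, a polarity scaffold, by 1.31 ± 0.114 (limma adjusted p = 1.23e-11) and Jup, plakoglobin, by 0.70 ± 0.0540 (limma adjusted p = 7.19e-13). Ctnna1, at 753 ± 24.4 CPM in wild-type and 418 ± 10.4 CPM in Dgcr8 KO, thus fell while its partner Cdh1 rose.

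Of 14 epithelial keratins, surface and secreted genes, 10 were tested, and in total RNA 6 were higher, 0 lower and 4 did not pass (median 0.44). Lgals3, a lectin of epithelia and macrophages, rose from 8.93 ± 0.628 to 76.3 ± 7.56 CPM (log2 change 3.07 ± 0.133, limma adjusted p = 3.65e-19). Itgb4, the hemidesmosomal integrin, rose by 2.30 ± 0.0935 (limma adjusted p = 8.83e-20) and Lama5, a basement membrane laminin chain, by 1.33 ± 0.0494 (limma adjusted p = 8.43e-21). Of 16 epithelial transcription and splicing regulators, 9 were tested, and 0 were higher, 6 lower and 3 did not pass (median -0.40). Grhl3 and Grhl1, grainyhead factors of epithelia, fell by 1.27 ± 0.133 (limma adjusted p = 7.14e-10) and 1.09 ± 0.212 (limma adjusted p = 4.06e-05), and Tfap2c, an AP-2 factor, by 0.67 ± 0.0972 (limma adjusted p = 4.16e-07). In nascent RNA this list had 2 higher and 3 lower, against 28.3% and 28.0% of all genes tested. In stability 4 of its 9 genes passed as lower, against 11.1% of all genes tested, and with RLE scaling 2 did, against 6.84%.

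Of 32 mesenchymal structural and matrix genes, 18 were tested, and in total RNA 12 were higher, 3 lower and 3 did not pass (median 0.29). Axl, a receptor tyrosine kinase, rose by 2.39 ± 0.216 (limma adjusted p = 2.82e-11), Thbs1, thrombospondin, by 1.97 ± 0.387 (limma adjusted p = 4.59e-05) and Itgav, the alpha-v integrin, from 208 ± 4.33 to 734 ± 27.7 CPM (1.82 ± 0.0477, limma adjusted p = 1.17e-24). Thbs1, at 0.84 ± 0.22 CPM in wild-type and 3.40 ± 0.44 CPM in Dgcr8 KO total RNA, reached 3 CPM only in Dgcr8 KO libraries. The filter thus let Thbs1 in through the group where it was high. The calponin Cnn2 fell by 1.36 ± 0.109 (limma adjusted p = 1.73e-12), the intermediate filament gene Nes by 0.73 ± 0.0735 (limma adjusted p = 2.72e-10) and Cald1, caldesmon, by 0.50 ± 0.0600 (limma adjusted p = 1.25e-08). In stability 4 of the 18 passed as higher and 0 as lower, against 5.02% and 11.1% of all genes tested; Itgav was 1 of the 4 (0.61, limma adjusted p = 1.11e-06). With RLE scaling 7.48% of all genes tested passed as higher, and the count of this list under that scaling is not given here.

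Of 18 mesenchymal transcription factors only 9 were expressed enough to test, and in total RNA 4 were higher, 2 lower and 3 did not pass (median 0.26). Msx2, a homeobox factor, rose by 1.44 ± 0.211 (limma adjusted p = 4.37e-07), Tcf12, an E-protein, by 1.16 ± 0.0630 (limma adjusted p = 1.25e-16) and Mrtfa, a cofactor of SRF, by 0.50 ± 0.109 (limma adjusted p = 0.000181). Srf itself fell by 0.67 ± 0.0865 (limma adjusted p = 4.49e-08) and Tcf3, another E-protein, by 0.38 ± 0.0561 (limma adjusted p = 5.1e-07). Of 21 SNAIL and ZEB corepressors and turnover factors, 20 were tested, and 3 were higher, 8 lower and 9 did not pass (median -0.10), a share of lower genes near that of all genes tested. The demethylase Kdm1a fell by 0.56 ± 0.0511 (limma adjusted p = 2.75e-11), the methyltransferase Ezh2 by 0.50 ± 0.0633 (limma adjusted p = 3.65e-08) and Btrc, a ubiquitin ligase subunit that turns SNAIL over, by 0.47 ± 0.0729 (limma adjusted p = 1.48e-06). Lats2, a Hippo kinase, rose from 22.9 ± 0.515 to 89.8 ± 8.93 CPM (1.96 ± 0.0889, limma adjusted p = 1.3e-18) and passed in stability as well (0.96, limma adjusted p = 5.93e-07). Gsk3b, the kinase that marks SNAIL for degradation, rose by 0.34 ± 0.0624 (limma adjusted p = 1.46e-05), but all cells were grown with the GSK3 inhibitor CHIR99021. Usp17le, one of several near-identical deubiquitinase genes whose reads cannot be assigned with certainty, rose by 2.56 ± 0.315 (limma adjusted p = 1.91e-08). It reached 3 CPM only in Dgcr8 KO libraries, so the filter let it in through the group where it was high.

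**Figure D4:**
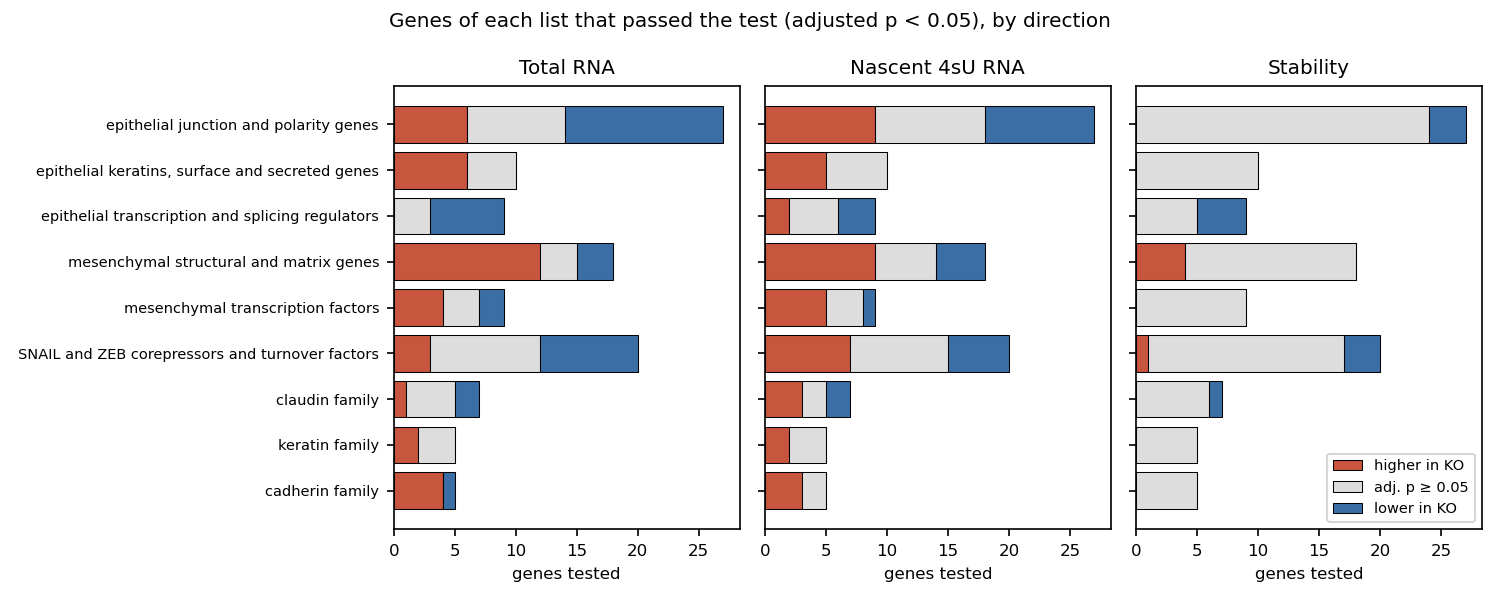
Number of genes tested (x axis) in each list that passed at an adjusted p under 0.05 as higher (red) or lower (blue) in Dgcr8 KO or did not pass (grey), in total RNA, nascent RNA and stability. In total RNA the mesenchymal structural genes are mostly red, with 12 of 18 higher, and the epithelial regulators have 0 higher and 6 of 9 lower; of all genes tested, 27.2% were higher and 36.7% lower.

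Most members of the gene families of Cldn6, Krt8, Cdh1 and Cdh2 were too low to test. Of 23 claudin genes 7 were tested, and in total RNA Cldn3 was higher (0.65 ± 0.174, limma adjusted p = 0.00162), Cldn6 lower and Cldn12 barely past the threshold (-0.17 ± 0.0744, limma adjusted p = 0.0488), a call that DESeq2 did not make (adjusted p = 0.19). Of 50 keratin genes 5 were tested and 19 had 0 counts in all 12 libraries. Both keratins that passed were higher: Krt8, and Krt17, a keratin of basal and activated epithelium, which rose from 3.69 ± 0.804 to 57.3 ± 4.37 CPM in total RNA (3.98 ± 0.213, limma adjusted p = 8.49e-17). The other 3 did not pass, Krt18 among them (-0.07, limma adjusted p = 0.72), named after its value was seen. Of 23 cadherin genes 5 were tested, and Cdh1, Cdh2 and Cdh4 (0.61 ± 0.123, limma adjusted p = 6.78e-05) were among the 4 that were higher; the 1 that was lower was Cdh24 (-0.56, limma adjusted p = 0.0108), named after its value was seen.

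Markers of other cells were measured beside these results. All 10 ESC markers were tested, with 5 higher and 4 lower in total RNA and a summed level of 5602 to 5728 CPM in wild-type and 5863 to 5990 CPM in Dgcr8 KO. Klf2, the only 1 called there, rose by 1.47 ± 0.0728 (limma adjusted p = 1.29e-17). In nascent RNA 8 were higher and 1 lower, against 28.3% and 28.0% of all genes tested. Their nascent sum was 5776 to 6107 CPM in wild-type and 8634 to 9244 CPM in Dgcr8 KO. In stability, with TMM scaling, 0 passed as higher and 5 as lower, against 5.02% and 11.1%. The 8 fibroblast or feeder cell markers summed to 10.97 to 13.27 CPM in wild-type and 5.45 to 6.78 CPM in Dgcr8 KO total RNA; Dcn and Postn were at 0 in all 12 libraries, and Pdgfrb, the only 1 tested, fell by 0.77 ± 0.179 (limma adjusted p = 0.000367). The 7 trophectoderm markers, cells rich in keratin 8, summed to 62.1 to 75.6 CPM in wild-type and 43.0 to 46.8 CPM in Dgcr8 KO, the 8 primitive endoderm markers to 99.9 to 110.0 CPM and 40.0 to 48.2 CPM, and the 7 mesoderm and neural markers to 155 to 157 CPM and 81.3 to 89.0 CPM. Each of these 4 sums was lower in Dgcr8 KO total RNA, but single abundant genes carried the larger ones, such as Col4a1 (93.6 and 32.8 CPM) for primitive endoderm and Tfap2c (56.1 and 35.0 CPM) for trophectoderm. Pdgfra, a primitive endoderm marker, rose by 2.20 ± 0.400 (limma adjusted p = 1.54e-05) but reached 3 CPM, the filter of the fit, only in Dgcr8 KO libraries. In nascent RNA the trophectoderm sums overlapped, at 105 to 119 CPM in wild-type and 98.6 to 118 CPM in Dgcr8 KO. The part of such cells in the changes of Vim and Krt8 was not tested. In such bulk libraries, fewer cells of a type and less RNA per cell cannot be told apart.

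The genes whose log2 CPM followed each of the 9 genes most closely over the 12 libraries are given as a description, since the libraries share genotype and kind of RNA in groups of 3. Krt8 was followed by Sept1 and Fstl1 (Pearson's r = 0.997 for both), Vim by Grsf1 (r = 0.996), and Snai1 by Msx2 and Ticam1 (r = 0.996 for both). Epcam was followed by Wdsub1 and Ddx50 (r = 0.996 for both), Cdh1 by Clstn3 (r = 0.989) and Fam129b (r = 0.988), and Cldn6 by Tubb3 (r = 0.983) and Smg5 (r = 0.982). Cdh2 was followed by Rab32 (r = 0.971) and Dock4 (r = 0.959), Snai2 by Gm45212 (r = 0.966) and Pdp1 (r = 0.965), and Zeb1 by Zfp148 (r = 0.947) and Lcor (r = 0.939). Msx2 and Tubb3 also stood in the lists above.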

How the data were processed

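Per the labels and the study's methods, single-end 50-base reads from stranded libraries were trimmed with cutadapt 1.14, mapped uniquely to mm10 with STAR 2.5.3a and counted per GENCODE M14 gene by strand with featureCounts 1.5.3. The authors deposited raw counts for 12 libraries, which were used as deposited; unique mapping loses reads that near-identical genes share. Of 51559 identifiers, 92 were ERCC spike-ins (1 count in all), which were left out, and 51274 had a GENCODE M21 symbol. The 4 groups came from the sample titles, which match the genotype label; the source names of the KO samples read DDX8KO instead.

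Genes with at least 3 CPM in at least 3 libraries (14033) were fitted with limma 3.58.1 (voom, TMM scaling from edgeR 4.0.16, R 4.3.3) in one model of 4 group means, whose 3 contrasts were the change in total RNA, in nascent RNA and their difference (stability), each with Benjamini-Hochberg adjustment. Intervals are 95% and rest on the spread between libraries. Zeb2 was compared by an exact permutation test. The total to nascent ratio added 0.5 to each count. The scripts were tested on simulated data. The alternatives were edgeR's quasi-likelihood test, DESeq2 1.42.0, limma trend, 3 other scalings, 2 other filters, replicate blocks and leaving out each replicate (both its libraries).

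Same-numbered total and 4sU libraries are parts of 1 labeled sample, as the protocol in the labels describes; their deviations from the group means correlated at 0.0175 to 0.0783 in wild-type and 0.011 to 0.0374 in Dgcr8 KO, and 6 of 6 and 5 of 6 libraries correlated best with their own number. In another form of this check, on log2 CPM with 1 added, the correlations were 0.05 to 0.133 and 0.0203 to 0.0523. Named beside the 10 genes and Dgcr8 were up to 3 rises and 3 falls per list in total RNA, the largest that passed with libraries of the genotypes apart, and the 2 genes most like each of the 9 in the fit, of which 1 is not reported here. The genes and lists were chosen with earlier results of these data known. Counting precision is limited for genes at a few counts, and floors of 3 counts cover counting error only.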

Additional observations from a re-analysis of the deposited data

How the results depend on the processing

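Of 400 alternative values for the 27 log2 changes of the 9 genes, 364 kept the direction and the side of the threshold; 15 no longer passed at an adjusted p under 0.05, all of them Epcam or Snai2 in total RNA, 4 newly passed, all of them Zeb1 or Cdh1 in stability, and 17 turned the sign, each of a change that had not passed. Requiring 3 CPM in all 12 libraries left 4 genes (instead of 9) that passed in total RNA, 3 (instead of 7) in nascent RNA and 2 called genes (instead of 6) in each, since it removed Cldn6, Krt8, Snai1 and Snai2 from the test and Epcam in total RNA no longer passed. The shares of all genes under that filter, under the blocks and without a replicate are not given here, so such counts have no background beside them. Of the called changes that still passed, the log2 size went under 1 for Cdh2 in 3 of 15 alternatives in total RNA and 6 of 15 in nascent RNA, and for Snai2 in nascent RNA in 1 of 14. For stability the number that passed rose from 0 to 1 with DESeq2, RLE scaling or upper-quartile scaling, and ranged from 0 to 1 when a replicate was left out. A block for replicate number gave 9 genes that passed in total RNA, 7 in nascent RNA and 0 in stability, and the block of same-numbered total and 4sU libraries also left 0 in stability, so pairing changed no count; same-numbered wild-type and Dgcr8 KO libraries, whose deviations correlated at -0.0699 to 0.0699 (-0.103 to 0.0904 on log2 CPM with 1 added), share only a number. Signs turned for Epcam in nascent RNA (DESeq2 -0.0007, RLE -0.00127, without a replicate -0.025 to 0.144), Zeb1 in nascent RNA (DESeq2 -0.0272, RLE -0.0263, upper quartile -0.0186, without a replicate -0.011 to 0.0857), and in stability for Cdh2 (edgeR -0.0147, number block -0.00287, without a replicate -0.252 to 0.204, with -0.18 among them), Cldn6 (without a replicate -0.468 to 0.209, with 0.0748 among them), Krt8 (limma trend 0.0101), Snai1 (limma trend -0.492) and Snai2 (limma trend 0.57, without a replicate -1.22 to 1.19). Of 806 alternative values for the other listed genes and Dgcr8, 764 kept direction and side, 42 no longer passed and 0 turned. These values covered changes in total RNA and those stability changes that had passed, and left out nascent RNA. The listed genes were named for large changes in total RNA that passed with libraries apart. That choice largely fixed the absence of turned signs in advance. The cause of the differences between settings was not tested. Counts of a few reads limit Zeb2, Snai1 and Snai2 in total RNA and Cldn6 throughout.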
